A study of Mus musculus with 384 samples.

Results

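Cells of 2 mouse formative stem (FS) cell lines, 5ar1 and 5ar2, were compared in one medium. The members were the cells of either line with at least 3000000 summed counts in the table of raw counts, which were 90 of 96 cells of 5ar1 and 90 of 96 cells of 5ar2, or 180 of the 384 cells of the series. The other cells were of the EpiSC lines AFX6 and AF32, with 66 and 80 cells past that threshold, and are used below only for scale. Both FS cell lines were formative pluripotent stem cells by their labels and were grown in A3XR, also called AloXR, with activin at 3 ng/ml, the tankyrase inhibitor XAV939 at 2 μM and the retinoic acid receptor inverse agonist BMS493 at 1.0 μM. No genetic change or further treatment is given for either FS cell line. Per the paper's methods, both EpiSC lines were grown in more activin, with Fgf2 and without BMS493. XAV939 at 2 μM was in the medium of AFX6 but not of AF32. FS cell lines of the study came from epiblasts of embryos of CD1 or 129aa strains, and the sources used here do not say which strain gave which of these lines. Cells were sorted with 1 cell per well and read by Smart-seq2, which copies full-length mRNA. The sources used here do not say how many cultures, plates or library preparations each line came from. Each line was therefore taken as 1 sample. The line, its plate and its library preparation cannot be told apart, and no test between the lines was possible.

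Formative pluripotency is the state of the epiblast after implantation, when naive factors have been turned off and cells become able to respond to signals for germ layers and germ cells. FS cells are held in this state by weak activin signalling, while Wnt and retinoic acid signalling are blocked. They express Pou5f1, the central pluripotency factor, together with Otx2 and Fgf5, which mark the epiblast after implantation, and should lack the genes of differentiated lineages.

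The label of both lines was checked against 10 markers of pluripotent cells, and all 10 were found at 10 CPM or more in both lines, where CPM is counts per 1000000 counts. The sum of these markers had a median of 5040 CPM over 5ar1 cells and of 3776 CPM over 5ar2 cells. Pou5f1 was at 644 CPM in 5ar1 and 490 CPM in 5ar2, Otx2 at 175 and 178 CPM, and Fgf5 at 229 and 272 CPM. Among 7 markers of mesoderm, endoderm and streak, 0 reached 10 CPM in either line, while Eomes, a factor of the streak outside that set, was at 61.3 and 48.2 CPM. Of 9 extraembryonic and trophoblast markers, 5 are in the table, and Hand1 alone reached 10 CPM, in 5ar1. Of the neural markers Tubb3 alone reached it, in both lines, and of the fibroblast and blood markers Col1a1 alone, in 5ar2.

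Before any comparison, 4 cells stood apart from the rest, as their pluripotency markers summed to under 25% of the median of their line, while the next lowest cell was at 42.9%. This limit was set after the values were seen. Cell 26 of 5ar1 was at 0.553% of its line's median, and held 10109 CPM of the neuronal tubulin Tubb3 and 3732 CPM of the calcium-binding protein Calb2. Cell 41 of 5ar1 was at 11.9%, with 2637 CPM of Krt18 and 1148 CPM of Krt8, keratins of simple epithelia. It also held 6495 CPM of Vim, 1096 CPM of Sprr1a and 1051 CPM of Anxa1, and its cell type was not tested. Cell 66 of 5ar1 was at 22.3%, with 4062 CPM of Hes6 and 3959 CPM of Dll3, both of the Notch pathway, and still 291 CPM of Pou5f1. Cell 49 of 5ar2 was at 3.85%, with 35858 CPM of the smooth muscle actin Acta2 and 1867 CPM of the fibrillar collagen Col1a1. Each of these cells can carry the summed count of a gene for its line, so many of the results below are given with and without them.

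Summed counts were 430865008 in 5ar1 and 434858507 in 5ar2, with 3230023 to 6398702 counts per 5ar1 cell and 3322377 to 5884866 per 5ar2 cell. The median cell had counts for 11371 genes in 5ar1 and 11567.5 in 5ar2. Levels below are CPM of the summed counts of a line unless a cell is named. Folds carry exact conditional 95% intervals. Smart-seq2 reads carry no molecular identifier and several can stem from 1 molecule. These intervals, like the exact Clopper-Pearson 95% intervals of shares, therefore cover counting error only and not the spread between cultures.

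The FS cell lines were close to each other. Of 8712 genes whose level averaged 10 CPM or more over the 2 lines, 156 were at least 2-fold higher in 5ar1, a background of 1.79% of genes, and 88 were at least 2-fold higher in 5ar2, a background of 1.01%. By the same threshold 20.7% of genes differed between 5ar1 and AFX6, 16.8% between 5ar1 and AF32, 20.5% between 5ar2 and AFX6 and 19.4% between 5ar2 and AF32, and 15.3% differed between AFX6 and AF32, whose media also differ. The middle of all genes was near 0, with a median log2 fold of -0.06 for 5ar2 over 5ar1. By any margin 4980 of the 8712 genes were higher in 5ar1 and 3732 in 5ar2. From the 5th to the 95th percentile of genes the log2 fold ran from -0.73 to 0.55. Called genes had a median fold of 2.29 in 5ar1 and 2.33 in 5ar2, and 14 and 10 of them reached 4-fold. Protein-coding genes were 150 of the 156 and 85 of the 88. The median cell was also higher in the called line for 147 of 156 genes and for 82 of 88, and at least 2-fold higher for 138 and 78. A higher median cell does not show how much of a sum rests on a few cells. For Acta2, 9 cells held 96.1% of the sum of 5ar2. Without the 4 cells that stood apart 128 genes (1.48%) were called in 5ar1, of which 119 were among the 156, and 91 (1.05%) in 5ar2, of which 71 were among the 88.

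**Figure D1:**
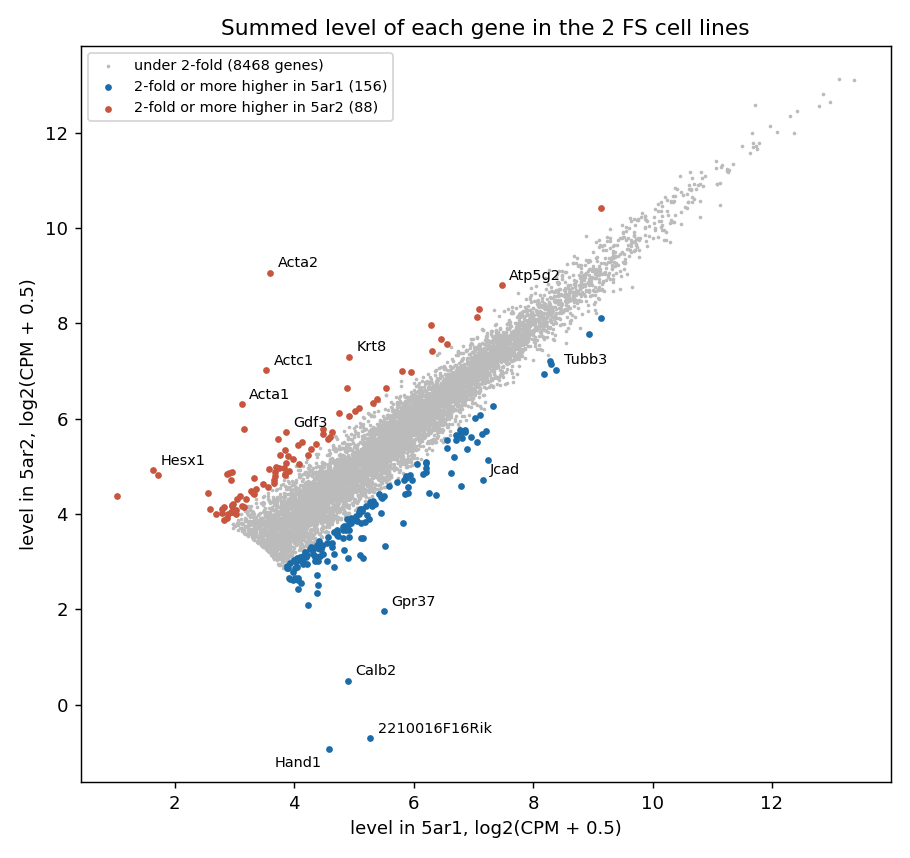
Each point is 1 of the 8712 genes, placed by its summed level in 5ar1 (x axis) and in 5ar2 (y axis), both as log2(CPM + 0.5). The 156 genes at least 2-fold higher in 5ar1 are blue, the 88 at least 2-fold higher in 5ar2 red, and the rest grey. Most genes lie along the diagonal, and Acta2, Actc1, Acta1, Hesx1 and Krt8 lie above it while Hand1, 2210016F16Rik, Calb2 and Gpr37 lie below.

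Muscle-type actins were among the genes with the largest folds in 5ar2. Acta2, the actin of smooth muscle, ranged over cells from 0 to 236 CPM with a median of 0.191 in 5ar1, and from 0 to 35858 CPM with a median of 2.62 in 5ar2. The ranges overlap, and more 5ar2 cells were high, with 35 of 90 cells at 10 CPM or more (38.9%, 95% interval 28.8 to 49.7%) against 10 of 90 in 5ar1 (11.1%, 5.46 to 19.5%). Summed levels of Acta2 were 11.6 CPM in 5ar1 and 535 CPM in 5ar2, a 46.1-fold difference (44.8 to 47.4), and cell 49 of 5ar2 held most of it. Without the cells that stood apart the levels were 11.9 and 95.1 CPM, an 8.00-fold difference. Actc1, the actin of heart muscle, had medians of 0.173 CPM in 5ar1 cells and 0.389 CPM in 5ar2 cells, with highest cells of 485 and 6821 CPM. At 10 CPM or more were 10 cells of 5ar1 and 31 of 5ar2. Its sums were 11.1 and 129 CPM, which is 11.7-fold (11.4 to 12.1), or 4.06-fold without the cells that stood apart. Acta1, the actin of skeletal muscle, had medians of 0.303 and 0.462 CPM, highest cells of 261 and 3093 CPM, and 8 and 25 cells at 10 CPM or more. Its sums of 8.23 and 78.4 CPM differed 9.52-fold (9.20 to 9.86), and 4.82-fold without those cells. For all 3 actins the median cell of either line was at 2.62 CPM or less, and the lines differed in how many cells were high.

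Promoters of these actins are known for CArG boxes, the sites of serum response factor, and are shown since the 3 genes were high in the same line. The 250 bases before the RefSeq start of each gene on GRCm38.p6 are given 5′ to 3′, all from the minus strand, with each stretch of the CArG pattern in capitals, also where 1 of its 6 middle bases is not A or T. Acta2 covers chr19:34255374-34255623, Actc1 chr2:114052876-114053125 and Acta1 chr8:123894776-123895025.
Acta2: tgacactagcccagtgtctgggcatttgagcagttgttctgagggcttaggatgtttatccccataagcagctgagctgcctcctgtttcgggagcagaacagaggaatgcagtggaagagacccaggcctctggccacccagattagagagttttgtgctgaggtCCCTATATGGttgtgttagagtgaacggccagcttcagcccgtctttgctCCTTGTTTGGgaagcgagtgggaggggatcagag
Actc1: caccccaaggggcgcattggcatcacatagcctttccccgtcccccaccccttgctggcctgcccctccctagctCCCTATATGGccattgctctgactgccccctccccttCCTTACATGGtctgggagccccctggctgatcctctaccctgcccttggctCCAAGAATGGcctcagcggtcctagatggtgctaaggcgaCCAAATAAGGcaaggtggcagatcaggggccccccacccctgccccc
Acta1: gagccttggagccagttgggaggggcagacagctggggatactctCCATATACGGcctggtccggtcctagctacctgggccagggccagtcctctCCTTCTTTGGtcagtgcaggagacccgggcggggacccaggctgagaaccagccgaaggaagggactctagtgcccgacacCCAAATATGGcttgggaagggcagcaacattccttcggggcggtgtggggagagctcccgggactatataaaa
The full CArG box was found 1 time before Actc1, at 47 to 38 bases before the start, 1 time before Acta1, at 73 to 64 bases, and 0 times before Acta2. With at most 1 middle base off, there were 2 stretches before Acta2, 4 before Actc1 counting the full box and 3 before Acta1. The pattern reads alike on both strands. Of 32851 promoters of this length 482 (1.47%) held a full box, 2823 (8.59%) a stretch with at most 1 middle base off, and 220 (0.670%) 2 or more of these. A match is a description of letters and not a site shown to be used.

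Other genes of the contractile cytoskeleton were also higher in 5ar2. A list of actins and actin-binding contractile proteins was put together after the actins had been seen, so its count is no independent evidence. Of 31 of its genes past the level filter, 10 were at least 2-fold higher in 5ar2 and 0 in 5ar1, with a median log2 fold of 0.51 beside -0.06 over all genes. Without the cells that stood apart 6 were, and the median was 0.39. With all kept cells, the shares called over all genes were 1.01% in 5ar2 and 1.79% in 5ar1. Cnn1, the actin-binding calponin of smooth muscle, ranged over cells from 0 to 972 CPM with a median of 37.5 in 5ar1 and from 0 to 2437 CPM with a median of 88.5 in 5ar2. Its sums were 77.7 and 248 CPM, a 3.20-fold difference, or 2.87-fold without those cells. Tnnt1, the slow skeletal troponin T, had medians of 6.44 and 34.9 CPM and sums of 12.8 and 47.1 CPM, and its difference of 3.68-fold was 3.82-fold without those cells. Cald1, which binds actin and calmodulin, kept 2.03-fold, while Myl9, Vcl and Csrp1 fell to 1.97-, 1.89- and 1.91-fold. The cytoplasmic actins differed less, with Actb at 3254 and 4081 CPM and Actg1 at 3183 and 3060 CPM, as did Srf itself at 22.5 and 21.6 CPM. Actg2, the enteric smooth muscle actin, was at 0.0186 and 11.4 CPM, and at 0.0191 and 0.0210 CPM without those cells. Rank correlations were taken across the 90 cells of a line, which are not independent samples. That of Acta2 with Actc1 was 0.484 in 5ar1 and 0.685 in 5ar2, and that of Acta2 with Cnn1 was 0.209 and 0.711. For Acta2 with Acta1 it was 0.289 and 0.413, and for Acta2 with Csrp1 0.373 and 0.643.

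Keratins of simple epithelia were higher in 5ar2. Krt8 ranged from 0 to 1148 CPM with a median of 1.01 CPM in 5ar1 cells, and from 0 to 2814 CPM with a median of 73.9 CPM in 5ar2 cells. The highest 5ar1 value is that of cell 41, the ranges overlap, and 39 of 90 cells of 5ar1 and 78 of 90 of 5ar2 were at 10 CPM or more. Sums were 29.8 and 157 CPM, which is 5.29-fold (5.19 to 5.39), and 6.16-fold without the cells that stood apart. Krt18, the partner with which Krt8 builds filaments, had medians of 30.3 and 137 CPM and sums of 79.0 and 172 CPM, a 2.18-fold difference that was 2.69-fold without those cells. Krt8 (chr15:101996698-102004482) and Krt18 (chr15:102028180-102032027) lie near the end of chromosome 15, where most genes were higher in 5ar2, as described below. Krt19, a further keratin of simple epithelia, lies on chromosome 11 and was at 8.39 and 54.9 CPM, which is 6.55-fold (6.32 to 6.79), or 8.70-fold without those cells. At 10 CPM or more were 13 cells of 5ar1 and 44 of 5ar2. Within a line, the rank correlation of Krt8 with Krt19 was 0.0028 in 5ar1 and 0.312 in 5ar2. That of Krt8 with Krt18 was 0.318 and 0.528. Other junction genes moved less, with Cldn6 at 98.8 and 95.5 CPM, Jup at 76.1 and 77.0 CPM and Tjp1 at 18.3 and 17.7 CPM. Of 15 claudin, keratin and junction genes, 3 were at least 2-fold higher in 5ar2, all of them keratins, and 0 in 5ar1. Their median log2 fold was 0.02. The shares called over all genes were 1.01% in 5ar2 and 1.79% in 5ar1.

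Hesx1, a repressor of the anterior neural plate and pituitary, was among the transcription factors of the lists that passed the level filter and were at least 2-fold higher in 5ar2. It ranged from 0 to 115 CPM with a median of 0 in 5ar1 cells and from 0 to 306 CPM with a median of 0.223 CPM in 5ar2 cells. At 10 CPM or more were 4 of 90 cells of 5ar1 (4.44%, 1.22 to 11.0%) and 33 of 90 of 5ar2 (36.7%, 26.7 to 47.5%), so that most cells of both lines were low. Sums were 2.61 and 29.8 CPM, which is 11.4-fold (10.7 to 12.1), and 11.2-fold without the cells that stood apart. In AFX6 and AF32 it was at 0 and 0.0141 CPM. Lhfp, a gene of a family of membrane proteins, was found after thinning in 18.9% of 5ar1 cells and 62.2% of 5ar2 cells and was at 1.56 and 20.4 CPM, a 13.1-fold difference (12.1 to 14.2).

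**Figure D2:**
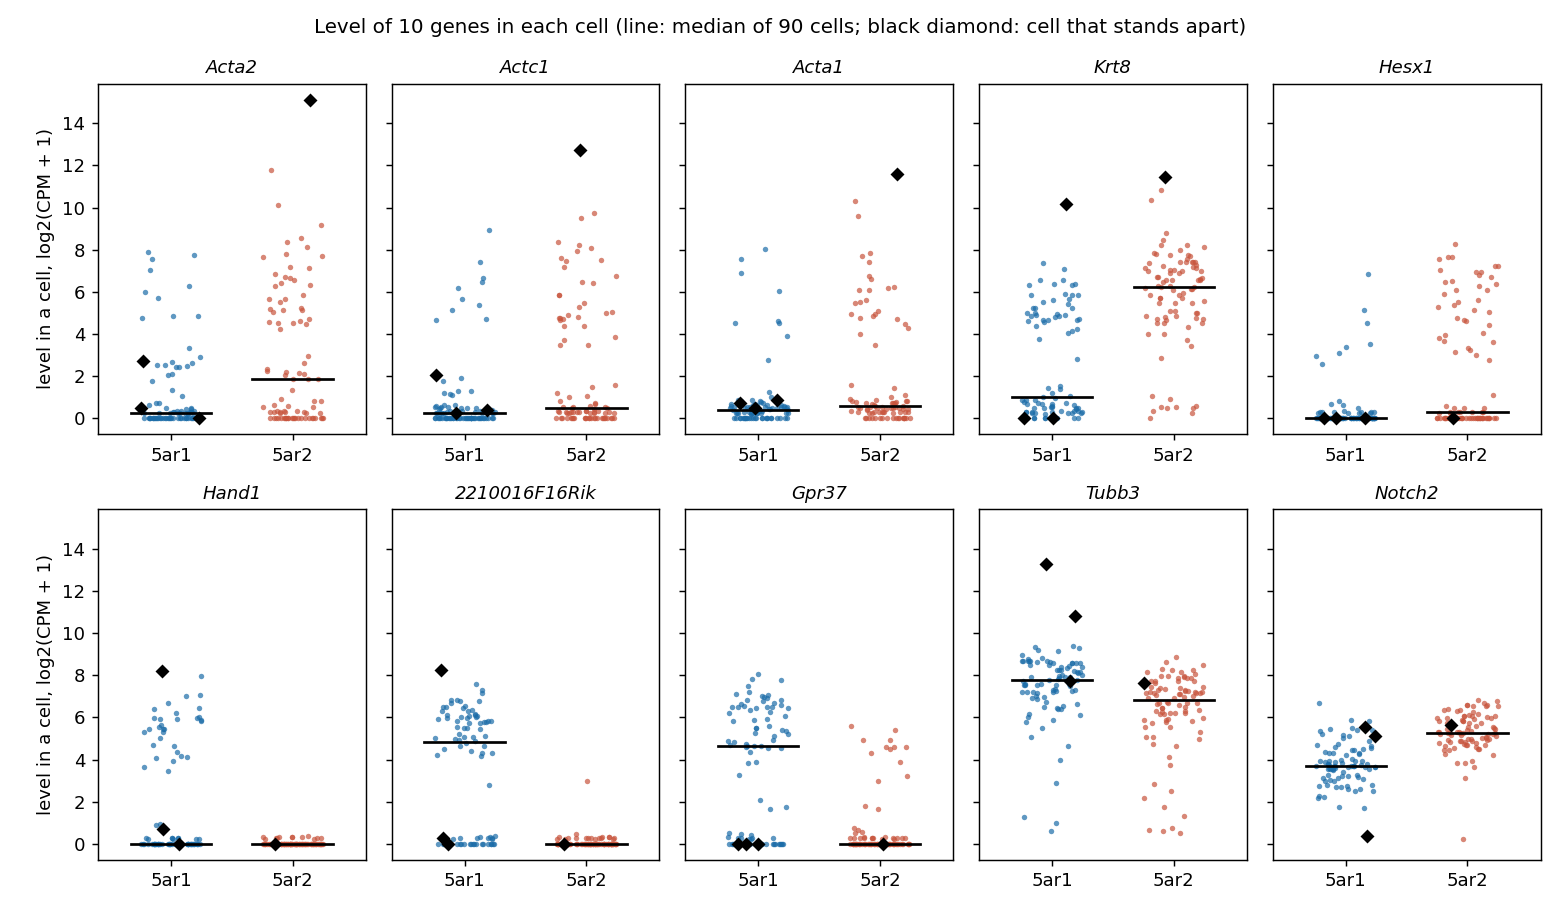
Each point is 1 cell, placed by its level of 1 gene as log2(CPM + 1) on the y axis, for the 90 cells of 5ar1 (blue) and the 90 cells of 5ar2 (red). Lines are medians and black diamonds the 4 cells that stood apart. Acta2, Actc1, Acta1 and Hesx1 were high in part of the 5ar2 cells, Krt8 in most of them, and Hand1, 2210016F16Rik and Gpr37 in part of the 5ar1 cells.

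Nodal and activin signalling keeps epiblast cells pluripotent, and its genes were split between the lines. Gdf3, a ligand of this family, was at 14.1 and 52.2 CPM (3.71-fold), and was named after its values were seen. It was at 10 CPM or more in 26 cells of each line, but at 100 CPM or more in 3 cells of 5ar1 and 19 of 5ar2. Tgfbr1, a type I receptor, was 2.01-fold higher in 5ar1 at 18.9 and 9.43 CPM, and 1.94-fold without the cells that stood apart. Receptor-regulated Smads differed less, with Smad2 at 54.4 and 47.0 CPM and Smad3 at 18.1 and 14.2 CPM. Over all 14 genes of the pathway past the filter, 2 were called in 5ar2 and 1 in 5ar1, and the median log2 fold was -0.23. Of all genes 1.01% were called in 5ar2 and 1.79% in 5ar1. Without the cells that stood apart 2 genes of the pathway were called in 5ar2 and 0 in 5ar1, with a median of -0.14.

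In the Notch pathway cleaved receptors turn on Hes genes. Of its 9 measured genes 2 were at least 2-fold higher in 5ar2 and 0 in 5ar1, with a median log2 fold of 0.13. Of all genes 1.01% were called in 5ar2 and 1.79% in 5ar1. Notch2, a receptor, ranged over 5ar1 cells from 0.310 to 101 CPM with a median of 12.0, and over 5ar2 cells from 0.187 to 113 CPM with a median of 38.0. The ranges overlap almost whole, but the 5ar2 cell was higher in 87.4% of pairs of a 5ar1 and a 5ar2 cell, and its sums of 16.9 and 45.4 CPM differed 2.69-fold (2.61 to 2.76). An annotated gene of unknown role, Gm42820, overlaps exons of Notch2, and no strand setting is given for the counting. Hes1, a transcriptional repressor and target of Notch, was at 21.9 and 55.0 CPM, which is 2.51-fold. The ligand Dll3 was at 172 and 118 CPM and the inhibitor Hes6 at 178 and 120 CPM, with 3959 and 4062 CPM of them in cell 66 of 5ar1. Without the cells that stood apart the median of the list was 0.29, with 2 genes called in 5ar2 and 0 in 5ar1.

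Single members of other signalling and stress lists passed 2-fold in 5ar2. Among them were Nr4a1, an immediate early nuclear receptor (13.8 and 40.2 CPM), Plk2, a p53 target kinase (26.3 and 68.7 CPM), Gadd45b, a stress gene (11.5 and 30.3 CPM), and Ifitm3, an interferon-induced membrane protein (16.2 and 42.9 CPM). Pdgfa, a growth factor ligand, was at 9.58 and 26.4 CPM, and Prr5l, which binds the mTORC2 complex, at 5.39 and 21.1 CPM, which became 3.61- and 6.50-fold without the cells that stood apart. Sema3e, a guidance ligand, was at 6.81 and 28.0 CPM, and Prss23, a secreted protease, at 7.02 and 28.6 CPM. The 4.07-fold difference of Prss23 was 3.11-fold without the cells that stood apart. Id1, a target of BMP signalling, was at 8.44 and 17.2 CPM, and its 2.04-fold difference was 1.99-fold without those cells. Bambi, of the same BMP list, went the other way and was 2.96-fold higher in 5ar1. Its fold was 2.84 or more under all 10 other ways of summing or scaling. Of 9 measured genes of that list 1 was called in each line, with a median log2 fold of 0.01. Of all genes 1.01% were called in 5ar2 and 1.79% in 5ar1. Gstt1, a glutathione transferase, was at 12.5 and 31.0 CPM, and its 2.48-fold difference was 2.02-fold without those cells. Fn1, the matrix protein fibronectin, was at 16.4 and 32.8 CPM, but at 16.2 and 15.7 CPM without those cells, so its 2.00-fold difference rested on cell 49 of 5ar2. Thbs1, another matrix protein chosen after its values were seen, went from 20.1 and 44.2 CPM to 19.6 and 15.8 CPM, and Col1a1 from 2.81 and 27.7 CPM to 2.89 and 4.82 CPM.

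Genes near 0 in 5ar2 and high in part of the 5ar1 cells stood out in the other direction. 2210016F16Rik (chr13:58379817-58385225) ranged from 0 to 308 CPM with a median of 27.5 in 5ar1 cells, and from 0 to 6.95 CPM with a median of 0 in 5ar2 cells. At 10 CPM or more were 54 of 90 cells of 5ar1 (60.0%, 49.1 to 70.2%) and 0 of 90 of 5ar2, which allows a share of up to 4.02%. Its sums were 38.2 and 0.113 CPM. A low level in a line can come from reads of cells on the same run, and the 4 Y-linked genes Ddx3y, Eif2s3y, Kdm5d and Uty gave a scale for it, as they summed to 0.547 CPM in AFX6, 0.278% of their mean in the other lines. That share would give 2210016F16Rik 0.0358 CPM, so its fold of 339 (256 to 459) has a denominator of the order of carried-over reads. Hand1, a factor of trophoblast and mesoderm chosen here after its values were seen, ranged from 0 to 295 CPM in 5ar1 cells with 31 of 90 at 10 CPM or more, and from 0 to 0.301 CPM in 5ar2 cells with 0 of 90. Its sums were 23.5 and 0.0276 CPM beside 0.0222 CPM of carried-over reads. Of the other markers of its set in the table, Elf5 was at 0 and 2 counts, Gata3 at 0 and 0.959 CPM, Amn at 1.33 and 0.796 CPM and Sox7 at 0.796 and 0.501 CPM. Kdm5d, a Y-linked demethylase under the level filter, was at 10.7 and 0.0184 CPM beside 0.00988 CPM of carried-over reads, and had a count in 47.8% of 5ar1 cells and 4.44% of 5ar2 cells after thinning. Its neighbours on the Y chromosome were found in both lines, with Eif2s3y at 81.5 and 85.9 CPM, Ddx3y at 65.9 and 54.5 CPM and Uty at 23.0 and 13.3 CPM. In AF32 too Kdm5d was at 0 CPM, with Eif2s3y at 146 CPM, Ddx3y at 68.9 CPM and Uty at 40.3 CPM.

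Gpr37, a receptor coupled to G proteins, ranged from 0 to 269 CPM with a median of 23.8 in 5ar1 cells and from 0 to 46.5 CPM with a median of 0 in 5ar2 cells. The ranges overlap, 52 and 10 cells were at 10 CPM or more, and sums of 45.1 and 3.41 CPM differed 13.2-fold (12.6 to 14.0). Jcad, a protein of cell junctions, had medians of 106 and 0.866 CPM, highest cells of 548 and 170 CPM, and sums of 142 and 25.9 CPM (5.49-fold). The 5ar1 cell was higher in most pairs, since the 5ar2 cell was higher in 14.0% of them. Hltf, a helicase-like DNA translocase, had medians of 144 and 24.2 CPM and sums of 151 and 34.8 CPM (4.34-fold). Other large folds were Cpq, a carboxypeptidase (18.2 and 3.74 CPM), Ccn2, a matrix protein and target of YAP (45.6 and 9.52 CPM), Them4, a thioesterase (111 and 23.7 CPM), Hip1r, of clathrin coats (55.9 and 13.6 CPM), Tnfrsf22, a decoy receptor (33.8 and 8.27 CPM), Dhrs7, a dehydrogenase (82.8 and 20.5 CPM), and Lonrf1 (20.3 and 4.57 CPM). Gm47283 on the Y chromosome, at 35.2 and 7.90 CPM, has a near-identical copy on the X chromosome, and its level is uncertain. Each of the folds from Jcad to Gm47283 was from 3.70 to 7.62 under all 10 other ways of summing or scaling the counts that were tried. Gpx3, a secreted glutathione peroxidase, was at 75.8 and 21.1 CPM, with medians over cells of 62.7 and 0.369 CPM.

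Neuronal cytoskeletal genes were higher in 5ar1, in part through cell 26. Tubb3 ranged over 5ar1 cells from 0.510 to 10109 CPM with a median of 217, and over 5ar2 cells from 0.428 to 464 CPM with a median of 113. Its sums were 335 and 130 CPM, a 2.58-fold difference that was 1.88-fold without the cells that stood apart. Nefm, a neurofilament, did not rest on those cells, with medians of 61.0 and 13.1 CPM and 3.46-fold higher sums, or 3.31-fold without them. Bdnf, a neurotrophin, was 2.56-fold higher at 14.7 and 5.72 CPM and 2.55-fold without them. A list of neuronal cytoskeleton and synapse genes, put together after Tubb3 and Nefm had been seen and so no independent evidence, had 9 of 18 genes at least 2-fold higher in 5ar1 and 0 in 5ar2, with a median log2 fold of -0.91. Without those cells 4 of 14 were, with a median of -0.57. With all kept cells, the shares called over all genes were 1.79% in 5ar1 and 1.01% in 5ar2. Calb2 fell from 31.8- to 1.46-fold, Tagln3 from 3.73- to 1.39-fold, Rtn1 from 3.59- to 1.77-fold and Dpysl3 from 2.36- to 1.04-fold. The 6 neural markers used to check the label went both ways, and all but Tubb3 were under 10 CPM in both lines. Sox1 and Pax6 were 2.37- and 1.58-fold higher in 5ar2. After thinning, Sox1 was found in 13.3% of 5ar1 cells and 30% of 5ar2 cells, and Pax6 in 7.78% and 17.8%. Neurog1, Neurod1 and Dcx, like Tubb3, were higher in 5ar1.

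Imprinted genes are expressed from the copy of 1 parent. Of 39 measured members 4 were at least 2-fold higher in 5ar1 and 0 in 5ar2, with a median log2 fold of -0.26. Of all genes 1.79% were called in 5ar1 and 1.01% in 5ar2. Without the cells that stood apart 3 of 39 members were called in 5ar1 and 0 in 5ar2. Pon2, a paraoxonase, was at 35.1 and 10.8 CPM (3.24-fold), Gatm, an enzyme of creatine synthesis, at 16.3 and 5.84 CPM (2.78-fold), and Calcr, the calcitonin receptor, at 70.5 and 28.3 CPM (2.49-fold). Pon2 and Calcr lie on the proximal part of chromosome 6. Nnat, a neuronal membrane protein, was at 161 and 76.2 CPM, and its 2.12-fold difference was 1.23-fold without the cells that stood apart. Cdkn1c, a cell cycle inhibitor, and Phlda2, a growth repressor of placenta, were higher in 5ar2, at 77.8 and 113 CPM and at 14.0 and 27.6 CPM, both under 2-fold. Among 6 measured germline genes, which DNA methylation keeps silent in somatic cells, 3 were at least 2-fold higher in 5ar1, beside 1.79% of all genes. In 5ar2 0 of the 6 were, beside 1.01% of all genes. Trap1a, an X-linked tumour antigen, was at 118 and 40.9 CPM, Ccnb1ip1, a ligase of meiotic recombination, at 19.9 and 7.55 CPM, and Xlr3a at 20.5 and 9.23 CPM. Of 199 zinc finger genes of the KRAB and other Zfp families, 5 were at least 2-fold higher in 5ar1 (2.51%, beside 1.79% of all genes) and 0 in 5ar2, among them Zfp575 (34.1 and 10.8 CPM) and Zfp946 (124 and 48.8 CPM).

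Core pluripotency factors differed by less than 2-fold. Of 12 core pluripotency genes 0 were called in either line, and the median log2 fold was -0.11. Sox2 was at 17.4 and 17.5 CPM, Nanog at 28.5 and 33.5 CPM and Sall4, a zinc finger factor, at 190 and 190 CPM. The cell surface proteins Epcam and Cdh1 were higher in 5ar1, at 553 and 362 CPM and at 89.6 and 54.2 CPM. Of 16 formative factors, 12 were higher in 5ar1, 1 was called in 5ar2 and 0 in 5ar1, with a median of -0.21. Without the cells that stood apart 9 of 16 were higher in 5ar1, with a median of -0.16. Over all genes 4980 of 8712 were higher in 5ar1. Dnmt3b, a de novo DNA methyltransferase, ranged over cells to 4844 CPM in 5ar1 with a median of 2263, and to 2972 CPM in 5ar2 with a median of 1402. Its sums of 2243 and 1434 CPM differed 1.56-fold, and those of its relative Dnmt3a, at 285 and 173 CPM, pointed the same way. Pou3f1, a POU factor of the epiblast, was at 64.3 and 32.9 CPM (1.95-fold), and 1.85-fold without the cells that stood apart. Eomes, a T-box factor of the streak, was at 61.3 and 48.2 CPM.

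Genes of cholesterol and fatty acid synthesis, most of them targets of SREBP factors, were all higher in 5ar1. They were 33 of 33 measured genes, with a median log2 fold of -0.55 beside -0.06 over all genes. Of them 2 passed 2-fold, beside 1.79% of all genes. The sum of the list ranged over 5ar1 cells from 1207 to 22747 CPM with a median of 9168, and over 5ar2 cells from 2856 to 12412 CPM with a median of 6548. The cell ranges overlap, and the typical 5ar1 cell was higher. Lss, which closes the sterol ring, had medians over cells of 279 and 123 CPM and sums of 312 and 147 CPM (2.12-fold, 2.10 to 2.14). Fasn, the fatty acid synthase, was at 374 and 191 CPM, Acly, which supplies cytosolic acetyl-CoA, at 803 and 435 CPM, and Hmgcs1, of the mevalonate pathway, at 698 and 423 CPM. Their factor Srebf2 was at 183 and 166 CPM. Over 12 other settings the median of the list was from -0.60 to -0.48. In AFX6 and AF32 the sums of the list had medians of 9605 and 12090 CPM over cells.

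Glycolysis and hypoxia genes were also higher in 5ar1, with 26 of 37 genes and a median log2 fold of -0.30. Over all genes 4980 of 8712 were higher in 5ar1, with a median of -0.06. Pfkp, a phosphofructokinase, passed 2-fold at 58.2 and 27.4 CPM. Aldoc, an aldolase, was at 144 and 73.6 CPM, Bnip3, a hypoxia target on mitochondria, at 384 and 238 CPM, and Gpi1, the glucose phosphate isomerase, at 1258 and 832 CPM. Pgam1, a phosphoglycerate mutase, and Ldhb, a lactate dehydrogenase, went the other way at 782 and 1025 CPM and at 145 and 188 CPM. Among other pathways, 20 of 23 genes of the Wnt pathway, which XAV939 blocks in both lines, were higher in 5ar1 with a median of -0.24. Of these 23 genes 0 passed 2-fold in either direction. Without the cells that stood apart 17 of 23 were higher in 5ar1, with a median of -0.22.

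**Figure D3:**
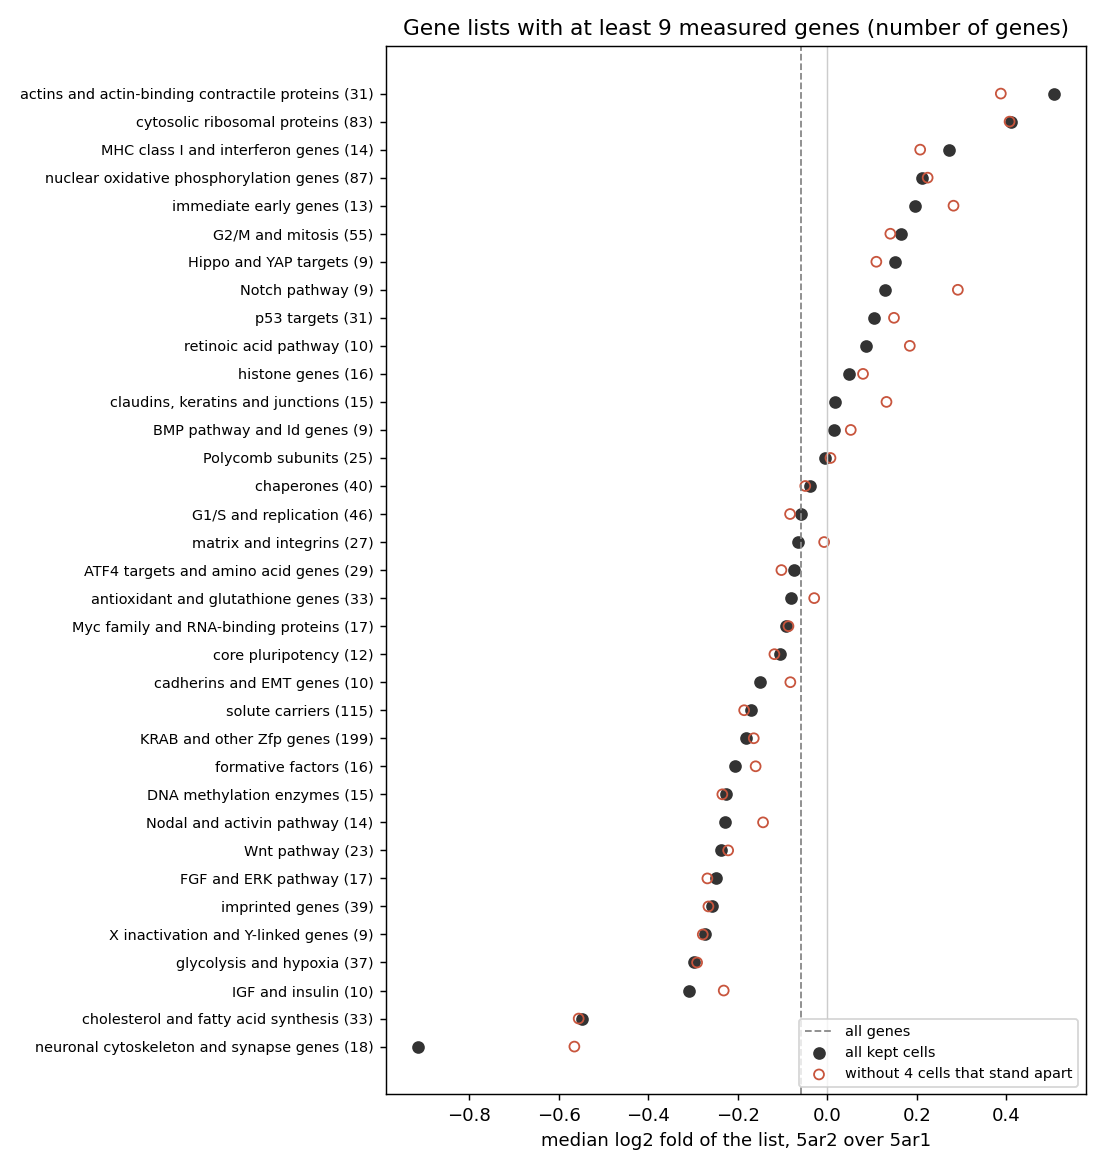
Each row is a gene list with at least 9 measured genes, and the x axis is the median log2 fold of its genes, 5ar2 over 5ar1. Filled points use all kept cells, open circles leave out the 4 cells that stood apart, and the dashed line is the median of all 8712 genes, at -0.06. Contractile and ribosomal genes lie to the right, and cholesterol and neuronal genes to the left, of which the contractile and neuronal lists were put together after values were seen.

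Genes of ribosomes and of oxidative phosphorylation were higher in 5ar2 by small folds. Of 83 cytosolic ribosomal protein genes 80 were higher in 5ar2 and 0 passed 2-fold, with a median log2 fold of 0.41. Their sum ranged from 37672 to 96722 CPM with a median of 68460 in 5ar1 cells, and from 47765 to 136907 CPM with a median of 83259 in 5ar2 cells. Of 87 nuclear genes of oxidative phosphorylation 74 were higher in 5ar2, with a median of 0.21, and 1 passed 2-fold, Atp5g2. These lists are made of short genes, and exon length moved with the difference over all genes. The median log2 fold was 0.07 over the 2179 genes with the shortest exons and -0.15 over the 2178 with the longest, and the rank correlation of length and log2 fold was -0.233 across 8712 genes, which are not independent. Centred on genes of like length, the medians were 0.28 for ribosomal and 0.07 for oxidative phosphorylation genes, while that of cholesterol genes was -0.55. The part of length or RNA quality in these differences was not tested. Of 55 G2/M and mitosis genes 38 were higher in 5ar2, with a median of 0.16, beside 3732 of 8712 over all genes. Past 2-fold was 1 of them, Ckap2, a spindle protein (39.4 and 79.9 CPM).

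The share of cells with a count was compared after each cell was thinned to 3000000 counts. Of 28704 genes with a count, 33 (a background of 0.115%) were found in at least 30 percentage points more cells of 5ar1, and 24 (0.0836%) in as many more cells of 5ar2. The level filter was passed by 19 of these 57 genes. Among those of 5ar1 were Gm21887, found in 100% and 26.7% of cells (100% and 30.0% without thinning), Crlf2, a cytokine receptor subunit, in 70.0% and 7.78%, and Mlh3, a mismatch repair protein, in 62.2% and 18.9%. Cldn7, an epithelial claudin, was found in 73.3% and 34.4% of cells, with sums of 16.9 and 10.5 CPM. Its median was 0.348 CPM in 5ar1 cells, under the level of carried-over reads, and 0 in 5ar2 cells, and from 5 counts on it was found in 26.7% and 22.2%. In 5ar2 Arhgap8, a GTPase-activating protein, was found in 43.3% and 83.3% of cells, and Col2a1, a collagen of cartilage, in 46.7% and 80.0%. Tagln, the smooth muscle protein transgelin, was found in 36.7% and 71.1%, and its summed level was 1.00 and 6.17 CPM, under the level filter. Lefty1, an antagonist of Nodal, was found in 66.7% and 98.9% of cells (82.2% and 100% without thinning) at 4.89 and 10.7 CPM beside 4.19 CPM of carried-over reads, and from 5 counts on it was found in 12.2% and 93.3%. Among the genes under the level filter were 9 processed pseudogenes, such as Krt8-ps, which can take reads of its parent Krt8.

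The distal part of chromosome 15 was higher in 5ar2 as a block. From the start of chromosome 15 to 80000000 bases, 186 measured genes had a median log2 fold of -0.06, with 2 genes at least 2-fold higher in each line. Past that point 168 genes, from 80077791 to 103538003 bases, had a median of 0.44, with 145 (86.3%) higher in 5ar2, 0 at least 2-fold higher in 5ar1 and 14 in 5ar2. The edge was placed after the values were seen. In steps of 5000000 bases the median went from -0.07 over the 79 genes before the edge to 0.43 over the 51 genes past it, and it was 0.40, 0.64, 0.36 and 0.57 in the steps that follow. Among 174 intervals of 10000000 bases with at least 20 genes, the 3 with the highest medians were the 3 of this region. That ranking and the levels per cell below use the same counts by which the edge was placed, so they are no independent evidence. Genes of it past 2-fold included Krt8, Krt18, Arhgap8, Col2a1 and Nr4a1 named above, and Pde1b, a phosphodiesterase (3.43-fold), Pus7l, a pseudouridine synthase family member (2.43-fold), Lrrk2, a kinase (2.19-fold), and Pfdn5, a prefoldin subunit (2.02-fold).

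The region was high in nearly every 5ar2 cell. The mean relative level of its genes, as a ratio to that of genes of other chromosomes in the same cell, was 0.660 to 1.02 in 5ar1 cells with a median of 0.820, and 0.783 to 1.41 in 5ar2 cells with a median of 1.19. Of the 90 cells of 5ar2, 89 lay above the median of 5ar1, and 0 of the 90 cells of 5ar1 lay above the median of 5ar2. The exception was cell 46 of 5ar2, at 0.783. For the rest of chromosome 15 the medians were 0.989 and 1.01, and a 5ar2 cell was higher in 59.1% of pairs, against 99.0% of pairs for the distal part. Of the cells that stood apart, those of 5ar1 were at 1.01, 0.822 and 0.926, and that of 5ar2 at 1.18. Chromosomes 16 and 19 differed in another way, with 5ar2 cells spread over low and high values, from 0.815 to 1.42 and from 0.769 to 1.42, around medians of 0.978 and 1.24. Atp5g2, a subunit c gene of ATP synthase (chr15:102662864-102672352), had one of the larger folds of the region. It ranged from 47.1 to 330 CPM with a median of 170 in 5ar1 cells and from 198 to 1032 CPM with a median of 433 in 5ar2 cells. A 5ar2 cell was higher in 99.0% of pairs, and 74 of 90 cells of 5ar2 lay above every 5ar1 cell, with sums of 177 and 445 CPM (2.51-fold, 2.49 to 2.53).

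**Figure D4:**
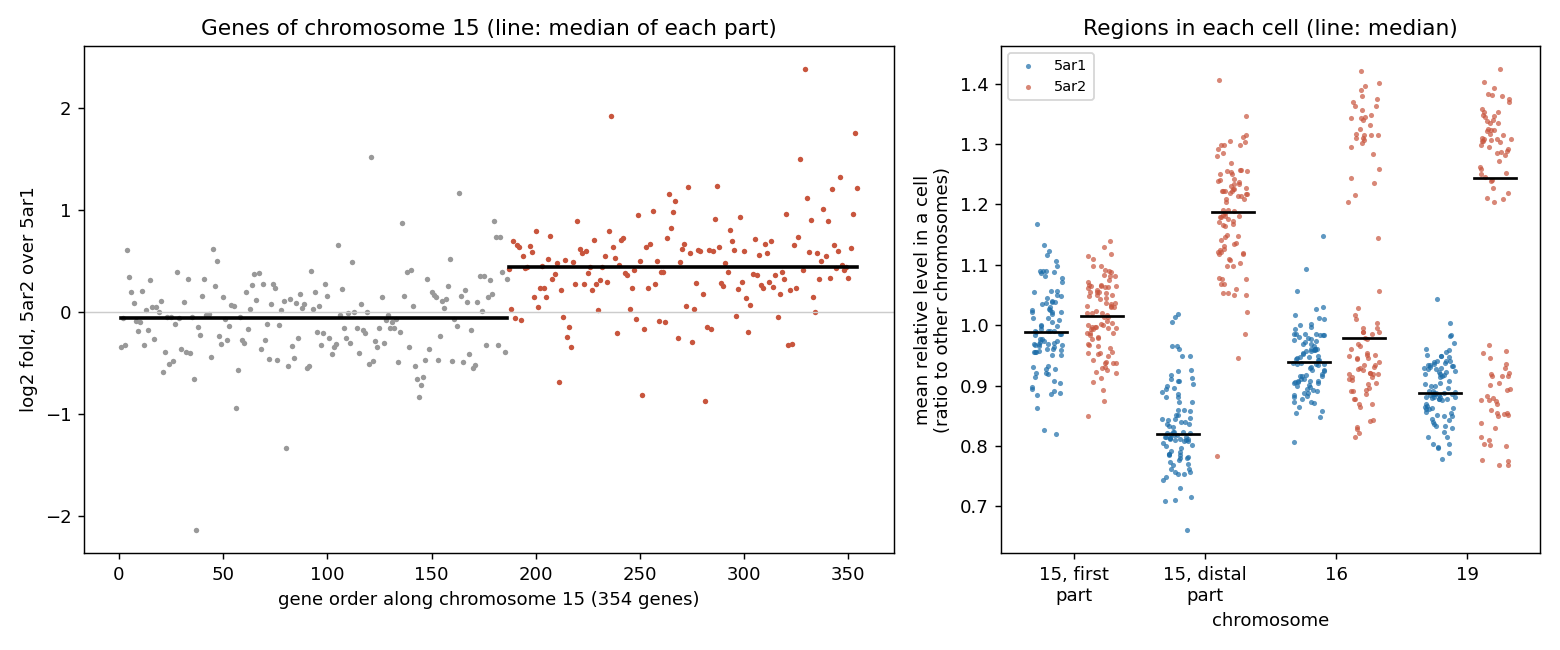
Left, log2 fold of each measured gene of chromosome 15, 5ar2 over 5ar1 on the y axis, in gene order on the x axis, with the median of each part as a line (-0.06 and 0.44). Right, mean relative level of 4 regions in each cell of 5ar1 (blue) and 5ar2 (red), with medians as lines. The distal part of chromosome 15 separates the lines almost fully, while 5ar2 cells fall into low and high groups for chromosomes 16 and 19.

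Set against the EpiSC lines, the distal part was higher in 5ar2 than in either, and in 5ar1 it lay between them. Its median log2 fold minus that of other chromosomes was 0.41 for 5ar2 over AFX6 and 0.76 for 5ar2 over AF32, and it was -0.19 and 0.22 for 5ar1 over the same lines, which are shared by these comparisons. Copy number was not measured. Chromosome 15 held 16 of the 88 genes called in 5ar2, which were 4.52% of its 354 measured genes beside 1.01% of all genes. With chromosomes 15, 16, 19 and Y left out, 150 of 7763 genes were called in 5ar1 and 62 in 5ar2. Acta2 lies on chromosome 19, whose median log2 fold was 0.27, and Hes1 on chromosome 16, whose median was 0.12.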

How the data were processed

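The authors sorted single cells into plates, made Smart-seq2 libraries and sequenced paired ends. They aligned reads to GRCm38.p6 with STAR 2.7.3a and counted uniquely mapped reads per gene with featureCounts 2.0.0, per the labels and the paper, and deposited these raw counts for 31617 genes. The strand setting is not given in the sources used here. The other deposited table holds the authors' depth-corrected sctransform values, a score on the scale of counts, which was used as an alternative only.

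Cells with at least 3000000 counts were kept and their raw counts summed per line, as cells are not replicates. With 1 line per group no p-value was computed. CPM, exact conditional intervals of folds and Clopper-Pearson intervals used Python 3.11.15, numpy 2.4.6, pandas 2.3.3 and scipy 1.17.1, and plots matplotlib 3.10.9. Genes were called at 2-fold or more where the level averaged over the 2 lines was at least 10 CPM. Log2 folds used CPM + 0.5. In pairs of cells from the 2 lines, ties counted 0.5. Shares used 1 count or more after thinning to 3000000 counts (seed 1). A count of 0 allows up to 3 counts, which is 0.00696 CPM in 5ar1 and 0.00690 in 5ar2. No cells had identical counts. Folds, intervals and calls were tested on simulated counts with counting error only. That test does not cover spread between cells or several reads of 1 molecule.

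Members and the 44 gene lists were chosen with earlier results of these data known, and 2 further lists, the limit for cells that stood apart and the edge on chromosome 15 were set after values were seen. Genes were named by a rule: among protein-coding genes past the filter with a count in at least 50% of the cells of the higher line, the 12 largest folds and the 6 largest share differences each way, and up to 4 members per list past 2-fold, 66 genes in all, some of which are not reported here. Hand1, Calb2, Col1a1, Actg2, Actb, Actg1, Kdm5d, Gdf3, Cnn1 and other genes outside it were chosen after their values were seen. Exons of 13 named genes overlap another gene (Ccn2, Hip1r, Pon2, Lhfp, Arhgap8, Pdgfa, Notch2, Lss, Pfkp, Ccnb1ip1, Fn1, Zfp575 and Slc7a7). Gene types and positions came from GENCODE M21 for 31565 of the 31617 genes, and promoters from RefSeq on GRCm38.p6 for 3 of 3 genes. Length centring subtracted the median log2 fold of 20 bins of exon length. For regions, the level of a gene in a cell relative to its mean in both lines was capped at 3, and the mean over the genes of a region was divided by that of the other chromosomes of the cell. Alternatives used TMM factors from edgeR 4.0.16 and size factors from DESeq2 1.42.0 in R 4.3.3.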

Additional observations from a re-analysis of the deposited data

How the results depend on the processing

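The counts of genes called in 5ar1 and 5ar2 stayed within 1.5 times of 156 and 88 under 13 of 18 other settings each. They moved with the filter, to 815 and 611 at 1 CPM, 33 and 19 at 50 CPM, and 5513 and 5539 with no filter beyond a count, where 49.9% of calls were higher in 5ar1 instead of 63.9%. They moved with the threshold by construction, to 795 and 396 at 1.5-fold and 14 and 10 at 4-fold. TMM factors gave 132 and 110, which is 54.5% in 5ar1, and shifted the median log2 fold of all genes by 0.06. Leaving out 9 cells with few genes, 3 of which stood apart, gave 128 and 112, which is 53.3%. Share counts moved in 5ar2 to 84 when a cell counts from 5 counts, to 39 when cells were thinned to 1000000 counts and to 14 with protein-coding genes only. In 5ar1 and 5ar2 they were 170 and 288 at 20 points and 5 and 0 at 50 points. Of 660 folds of named genes under other settings 1 reversed, that of Fn1 without the cells that stood apart (0.970, 5ar2 over 5ar1, an alternative chosen after seeing the data), and 337 moved. Causes of the moves with filter, depth and scaling were not tested. No paired analysis was possible because each line is 1 sample and the replicate numbers of the labels only number wells, and leaving out a line leaves nothing to compare. With cells of at least 4000000 counts, 155 and 107 genes were called. The labels name no second culture of either line, which limits every difference given here.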

Other observations

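Genes that code for no protein were 9 of the 244 called genes. Gm26917, a long noncoding RNA, was at 560 CPM in 5ar1 and 1372 CPM in 5ar2 (2.45-fold), and Platr14, a noncoding transcript, was at 102 and 36.3 CPM (2.81-fold). B830012L14Rik was at 36.0 and 13.7 CPM and Gm32585 at 12.9 and 30.9 CPM. These were chosen after their values were seen, and no explanation was tested.

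Slc7a5, a transporter of large neutral amino acids, was at 443 and 239 CPM, and Hsp90aa1, a cytosolic chaperone, at 1576 and 2322 CPM. Over 29 genes of the ATF4 response and of amino acid metabolism the median log2 fold was -0.07, and over 40 chaperones -0.04, beside -0.06 for all genes. Of 14 genes of MHC class I and the interferon response, 9 were higher in 5ar2 and 5 in 5ar1. Their median log2 fold was 0.27, or 0.07 when centred on genes of like length. Ifitm3 alone was past 2-fold, in 5ar2. H2-K1 and H2-D1, heavy chains of MHC class I, were higher in 5ar1 at 368 and 254 CPM and at 152 and 102 CPM, while B2m, their light chain, was at 40.7 and 53.2 CPM.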
